A study of Mus musculus with 10 samples.

Results

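The excitatory postsynapse is the receiving side of a glutamate synapse, and 42 genes that build it were followed here through the hippocampus after subarachnoid hemorrhage (SAH). The genes were chosen by name. They encode AMPA, NMDA, kainate, delta and metabotropic glutamate receptors, the scaffold proteins that hold them, the subunits of the kinase CaMKII and the neuroligins. All 42 were found among the 24391 gene names of the count tables, and all 42 passed the filter on low counts that left 14993 genes in the test. Whole hippocampi of both sides were taken on day 4 from male mice aged 10 to 14 weeks, of a strain spelled C56BL/6J in the study's methods, with 1 RNA-seq library for each mouse. In the 4 SAH mice a filament passed up the carotid artery had pierced the circle of Willis on 1 side, and only mice whose cerebral blood flow dropped at that moment were kept by the study. In the 3 Sham mice the filament had been advanced and drawn back without a puncture. The 3 Naive mice had no surgery. Surgery was done under isoflurane, and the labels list no drug as a treatment. Sham and Naive mice were pooled as the 6 control mice, as the study did, and were also compared with SAH one group at a time.

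Glutamate released by the presynaptic terminal opens AMPA receptors, which carry most of the fast current, and NMDA receptors, which let calcium in when the membrane is already depolarised. Calcium then activates CaMKII, the kinase whose activity is needed for long-term potentiation at hippocampal synapses. Under the membrane lies the postsynaptic density, in which PSD-95 and its relatives bind the receptors, SAPAP proteins bind PSD-95, and Shank and Homer proteins form the layer below. Metabotropic receptors signal through G proteins, and neuroligins reach across the cleft to presynaptic neurexins.

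The 10 libraries held between 19743388 and 27254655 counts each. Counts of the 42 genes made up 1.71% ± 0.044 (SD, n = 4) of all counts in SAH mice and 1.68% ± 0.044 (SD, n = 6) in control mice. Levels are given as CPM, the counts relative to the TMM-scaled library size, and differences as log2 fold changes of edgeR's quasi-likelihood test, called at a Benjamini-Hochberg adjusted p under 0.10 over all genes tested. The hippocampal markers were present in every mouse, with the 9 CA pyramidal neuron markers summing to 1058 to 1135 CPM in SAH and 1088 to 1166 CPM in control mice, and the 12 pan-neuron markers to 9404 to 9784 CPM and 9457 to 10089 CPM. Of the pan-neuron markers 9 of 12 had log2 fold changes below 0 and 1 was called, Elavl3, lower in SAH at −0.26 (SE 0.0702, adjusted p = 0.0736). Of the 6 dentate granule cell markers 1 was called, C1ql2, higher at 0.34 (SE 0.0931, adjusted p = 0.0727). All 10 oligodendrocyte markers were called lower in SAH, and their sum was 4999 to 6364 CPM against 7348 to 10150.3 CPM. The 8 choroid plexus markers summed to 1236 CPM in SAH mouse 3, 867 CPM in SAH mouse 4 and 832 CPM in Sham mouse 7, and to between 44.3 and 217 CPM in the other 7 mice. Called higher in SAH were 5 of 6 meningeal fibroblast markers, with sums of 93.8 to 178 CPM in SAH and 87.3 to 119.6 CPM in control mice, 4 of 8 microglia markers, with 454 to 567 CPM and 409.8 to 467 CPM, and 3 of 7 endothelial cell and pericyte markers, with 229 to 353 CPM and 184 to 232 CPM. The sums of SAH and control mice overlapped for each of these 3 lists, and not for the oligodendrocyte list. The part of these markers in the results below was not tested.

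Differences of the excitatory postsynapse genes between SAH and control mice were small. Grin2d, which encodes the GluN2D subunit of the NMDA receptor, was the 1 gene of the 42 called in SAH against control, and it was lower. No gene of the 42 was called higher. Over all genes tested 4.68% were called, 3.13% as higher and 1.54% as lower. The log2 fold changes of the 42 genes ran from −0.42 for Grin2d to 0.21 for Grin2b, with 16 above 0, 26 below 0 and a median of −0.040, against −0.0024 over all genes tested. With libraries scaled to the pan-neuron markers the median of the 42 turned to 0.016, and that of all genes to 0.054. In Sham against Naive the 42 genes also had a median below 0, of −0.036. In bulk tissue, fewer cells of a type and less RNA in each cell cannot be told apart. For 39 of the 42 genes the 95% interval of the log2 fold change lay within ±0.5, which is a change of 1.41-fold, and the exceptions were Grin2d, Grm4 and Camk2d. That is 92.9% of the 42 genes, against 77.6% of all genes tested. An unadjusted p under 0.05 was found for 15 of the 42 genes, or 35.7%, against 17% of all genes tested. The 42 genes were also measured more precisely, with a median of 125 CPM in control mice against 23.0 CPM over all genes and a median standard error of 0.0539 against 0.0758, so these shares do not compare how often genes differed. Of the 15, 5 had a higher mean in SAH (9.13% of all genes) and 10 a lower mean (7.87% of all genes). Of the groups of mice, SAH and control did not overlap for Shank1 and Dlgap3, both lower in SAH, and for no gene in the higher direction, against 2.37% lower and 2.83% higher over all genes.

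**Figure D1:**
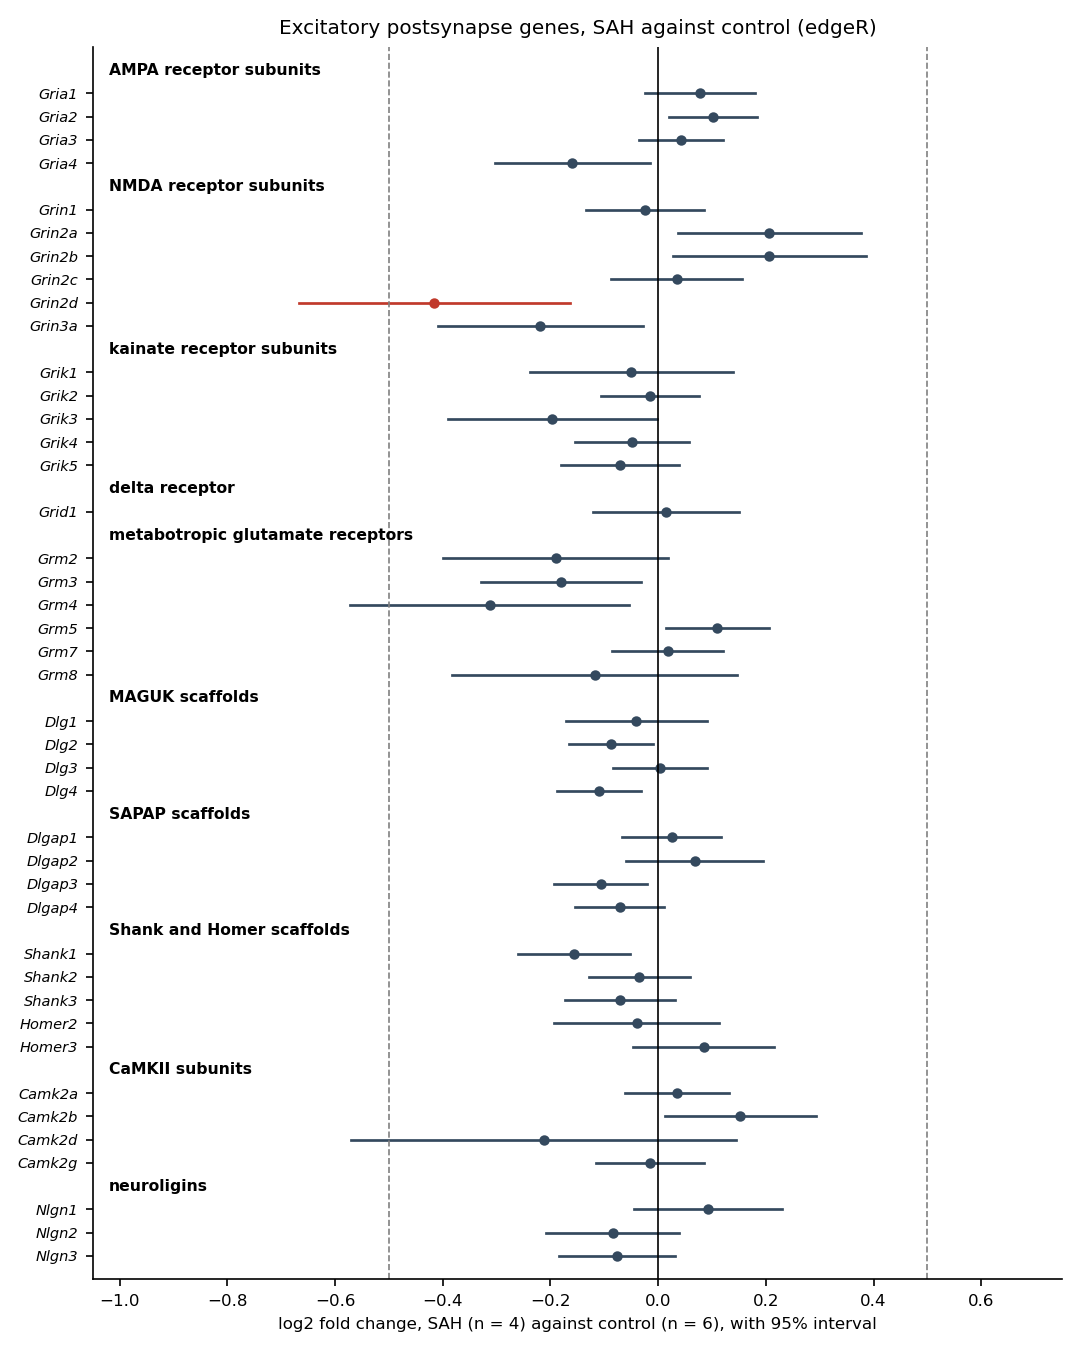
Log2 fold change of each of the 42 genes in SAH mice (n = 4) against control mice (n = 6), grouped by role, where points are edgeR estimates, lines their 95% intervals and dashed lines mark ±0.5. Grin2d, in red, is the gene past an adjusted p of 0.10, and the intervals of 39 genes lie inside the dashed lines, as do those of 77.6% of all genes tested.

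AMPA receptors are tetramers of the products of Gria1 to Gria4, and no Gria gene was called. Per kilobase of exon model, the levels averaged over the 10 mice were 221 CPM for Gria1, 132 CPM for Gria2, 51.8 CPM for Gria3 and 13.2 CPM for Gria4, in the same order in every mouse. Gria1 (mm9 chr11:56825120-57143746), whose GluA1 product is added to synapses during potentiation, was counted at 1255, 1330.4, 1460.4 and 1413 CPM in the SAH mice, at 1205, 1384 and 1287 CPM in the Sham mice and at 1276, 1348 and 1258 CPM in the Naive mice. SAH and control mice overlapped, and the log2 fold change was 0.078 (SE 0.0471, adjusted p = 0.430). Gria2 (mm9 chr3:80488858-80606713) encodes GluA2, the subunit that keeps calcium out of the AMPA receptor channel. Gria2 was counted at 1001, 1039, 1097 and 1131 CPM in the SAH mice, at 964, 1014 and 1015 CPM in the Sham mice and at 1014, 1006 and 953 CPM in the Naive mice. SAH mice 2, 3 and 4 lay above every control mouse and SAH mouse 1 among them, with a log2 fold change of 0.10 (SE 0.0381, adjusted p = 0.190). Without SAH mouse 1 the difference was 0.13 and passed the threshold (adjusted p = 0.0841). The least abundant of these genes per length, Gria4, had a log2 fold change of −0.16 (SE 0.0669, adjusted p = 0.245), and Gria3 one of 0.043 (SE 0.0360, adjusted p = 0.575).

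NMDA receptors join the obligatory GluN1 subunit, from Grin1, with GluN2 or GluN3 subunits that set how long the channel stays open and how strongly magnesium blocks it. Per kilobase, Grin1 stood at 145 CPM, Grin2b at 22.0 CPM, Grin2a at 10.4 CPM, Grin2c at 8.67 CPM, Grin3a at 8.33 CPM and Grin2d at 2.19 CPM. The ranges over the 10 mice overlapped between Grin2a and Grin2c and between Grin2c and Grin3a. In SAH mice the GluN2A and GluN2B genes had higher means and the GluN2D and GluN3A genes lower means than in control mice. Of these only Grin2d passed the threshold.

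Grin2d (mm9 chr7:53087853-53122051) encodes GluN2D, a subunit with slow closing and weak magnesium block that in the adult hippocampus is found mainly in GABA interneurons. It was counted at 7.79, 9.27, 7.88 and 6.99 CPM in the SAH mice, at 9.29, 11.9 and 8.37 CPM in the Sham mice and at 12.1, 11.3 and 11.0 CPM in the Naive mice. SAH mouse 2 lay within the range of the control mice and the other 3 SAH mice below it. Grin2d fell by 0.42 on the log2 scale (95% interval −0.67 to −0.16, SE 0.117, adjusted p = 0.0832). The call rests on single mice, since it was lost without SAH mouse 1, SAH mouse 3, SAH mouse 4, Sham mouse 6 or any of the 3 Naive mice, with a log2 fold change between −0.50 and −0.35 over the 10 such fits. The adjusted p lay between 0.0296 and 0.219 over all alternatives, and it was 0.116 when libraries were scaled to the pan-neuron markers. Among the 8 GABA neuron markers 1 was called, Sst, the somatostatin gene, which was lower in SAH with a log2 fold change of −0.27 (SE 0.0608, adjusted p = 0.0333). The other 7 had log2 fold changes of −0.15 for Slc32a1 to 0.16 for Vip, and the sum of the 8 was 852 to 925 CPM in SAH and 907 to 993 CPM in control mice. None of them was at 0 in any mouse, and their part in the Grin2d result was not tested.

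The stretch of 250 bases before the start of Grin2d is shown because Grin2d is the called gene. It is taken from the RefSeq promoter table for GRCm38.p6, a later build than the mm9 of the count tables, at chr7:45866682-45866931 on the minus strand. C and T make up 82.8% of its bases on the strand of the gene, against a median of 50% over 32851 promoters of the same length, of which 10 (0.0304%) had at least as high a share. This feature was chosen after the sequence was seen. Below it stands the same stretch of Camk2b, a gene of 1 of the ratios compared here that was chosen after its values were seen, also on the minus strand (chr11:6065749-6065998), in which capitals mark the GC box letters GGGCGG, the letters that Sp1 family factors bind, read on both strands.
Grin2d: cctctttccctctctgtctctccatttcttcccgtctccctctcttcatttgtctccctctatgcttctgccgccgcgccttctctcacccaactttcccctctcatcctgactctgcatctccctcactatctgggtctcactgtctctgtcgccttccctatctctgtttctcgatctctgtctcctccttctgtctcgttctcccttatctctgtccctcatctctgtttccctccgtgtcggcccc
Camk2b: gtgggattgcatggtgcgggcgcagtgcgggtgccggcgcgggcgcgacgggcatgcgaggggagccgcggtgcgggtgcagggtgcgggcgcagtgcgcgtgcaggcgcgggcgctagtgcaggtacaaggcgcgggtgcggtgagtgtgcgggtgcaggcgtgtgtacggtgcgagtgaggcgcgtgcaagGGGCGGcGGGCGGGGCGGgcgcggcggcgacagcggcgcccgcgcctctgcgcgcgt
Of the 42 genes, 27 matched the table, with 41 start sites. The GC box letters were found before 20 of these 41 (48.8%) and before 32.7% of all promoters in the table, and Grin2d has none. The cAMP response element TGACGTCA was found before 0 of the 41 and 1.55% of all promoters, and TATAAA before 3 (7.32%) and 12.4%. Matches of different motifs cannot share bases, and these counts describe the windows only.

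Grin2a and Grin2b encode the GluN2A and GluN2B subunits of most principal cell NMDA receptors, with GluN2A the faster to close. Grin2b (mm9 chr6:135679823-136123529) was counted at 161, 171, 206 and 179 CPM in the SAH mice, at 135, 151 and 147 CPM in the Sham mice and at 159.8, 189 and 149 CPM in the Naive mice. Naive mouse 9 lay above all SAH mice but SAH mouse 3, while every SAH mouse lay above every Sham mouse. For Grin2b the log2 fold change was 0.21 (SE 0.0835, adjusted p = 0.226), and without Naive mouse 9 it was 0.27 and past the threshold (adjusted p = 0.0724). Grin2a (mm9 chr16:9577803-9992626) was counted at 47.8, 46.9, 61.0 and 48.1 CPM in the SAH mice, at 38.1, 44.5 and 44.7 CPM in the Sham mice and at 46.3, 47.8 and 43.1 CPM in the Naive mice. SAH mouse 3 stood apart from the other 3 SAH mice, which lay between 46.9 and 48.1 CPM. The Grin2a difference was 0.21 (SE 0.0791, adjusted p = 0.200), and 0.11 (adjusted p = 0.462) without SAH mouse 3. Grin1 was counted at 584, 622, 704 and 605 CPM in the SAH mice, at 619.8, 654 and 599 CPM in the Sham mice and at 667, 669 and 629 CPM in the Naive mice. Its groups overlapped and its log2 fold change was −0.025 (SE 0.0511, adjusted p = 0.833), a sign that turned to 0.034 when libraries were scaled to the pan-neuron markers and to 0.0086 without SAH mouse 1. Grin3a had −0.22 (SE 0.0888, adjusted p = 0.229) and Grin2c 0.035 (SE 0.0566, adjusted p = 0.782).

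**Figure D2:**
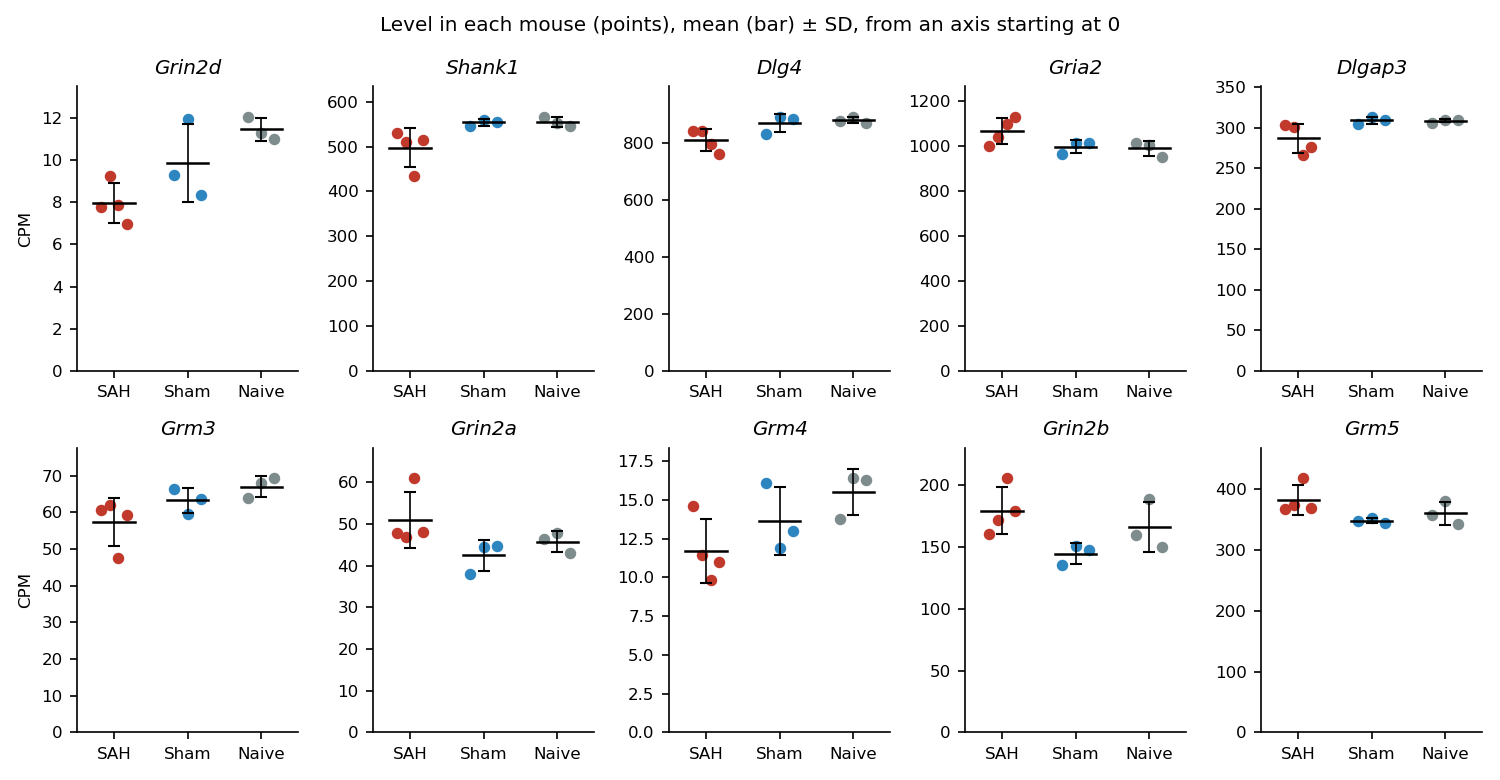
CPM in each mouse for the 10 genes with the smallest unadjusted p in SAH against control, with points for mice, horizontal bars for group means and error bars for the SD, on axes starting at 0. Shank1 and Dlgap3 show no overlap of SAH mice with Sham and Naive mice, and the highest SAH point of Grin2a, Grin2b and Grm5 is SAH mouse 3.

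Kainate receptors, from Grik1 to Grik5, act on both sides of the synapse and are dense at mossy fiber inputs to CA3. All 5 genes had log2 fold changes below 0, from −0.20 for Grik3 to −0.015 for Grik2, and 0 were called. Grik5, which encodes the high-affinity GluK5 subunit, had the highest level per kilobase of them at 59.6 CPM, followed by Grik4 at 17.9 CPM, Grik2 at 16.6 CPM, Grik3 at 7.80 CPM and Grik1 at 4.89 CPM. The ranges of Grik4 and Grik2 over the 10 mice overlapped. Grik5 (mm9 chr7:25794870-25857388) was counted at 227, 225, 240.4 and 195 CPM in the SAH mice, at 229.9, 239 and 222 CPM in the Sham mice and at 237, 236 and 234 CPM in the Naive mice. SAH mouse 4 was the lowest of the 10 and the groups overlapped, with a log2 fold change of −0.071 (SE 0.0509, adjusted p = 0.506). Grid1, the delta receptor gene whose GluD1 product links the postsynapse to neurexins through cerebellins, was counted at 69.8, 70.2, 80.9 and 62.5 CPM in the SAH mice, at 69.5, 71.4 and 64.3 CPM in the Sham mice and at 69.0, 73.2 and 73.4 CPM in the Naive mice. The highest and the lowest mouse were both SAH mice, SAH 3 and SAH 4, and the Grid1 difference was 0.014 (SE 0.0629, adjusted p = 0.932). It was −0.052 without SAH mouse 3.

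Metabotropic receptors divide into group I, here Grm5, which couples to calcium release, group II, Grm2 and Grm3, and group III, Grm4, Grm7 and Grm8, which lower cAMP and sit largely on presynaptic terminals. None of the 6 was called. The group I gene had a higher mean in SAH, and both group II genes and Grm4 and Grm8 had lower means. Grm5 (mm9 chr7:94732678-95283573), the most abundant per kilobase at 42.9 CPM, was counted at 367, 375, 419 and 369.8 CPM in the SAH mice, at 348, 353 and 345 CPM in the Sham mice and at 358, 380.5 and 342 CPM in the Naive mice. Every SAH mouse lay above every Sham mouse, Naive mouse 9 was higher than 3 of the SAH mice, and the log2 fold change was 0.11 (SE 0.0446, adjusted p = 0.227). With libraries scaled to the pan-neuron markers, Grm5 stood at 0.17 and passed the threshold (adjusted p = 0.0908).

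Grm3, which is present in astrocytes as well as neurons, was counted at 60.6, 61.9, 47.6 and 59.1 CPM in the SAH mice, at 66.4, 59.6 and 63.6 CPM in the Sham mice and at 63.8, 67.9 and 69.3 CPM in the Naive mice. SAH mouse 3 was far below the other SAH mice, and 2 of the remaining 3 lay inside the control range. The log2 fold change of Grm3 was −0.18 (SE 0.0690, adjusted p = 0.198), and −0.10 without SAH mouse 3. Among the 10 astrocyte markers 1 was called, Gfap, which was higher in SAH with a log2 fold change of 1.00 (SE 0.161, adjusted p = 0.00535), and their sum was 5593 to 6791 CPM in SAH and 5559 to 6042 CPM in control mice. Their part in the Grm3 value was not tested. Grm4 was counted at 14.6, 11.4, 9.80 and 11.0 CPM in the SAH mice, at 16.1, 11.9 and 13.0 CPM in the Sham mice and at 13.8, 16.4 and 16.3 CPM in the Naive mice. SAH mouse 1 lay among the control mice, and SAH mice 2, 3 and 4 below all of them. For Grm4 the log2 fold change was −0.31 (SE 0.120, adjusted p = 0.202), with an interval of −0.57 to −0.055, and without SAH mouse 1 it was −0.43 and past the threshold (adjusted p = 0.0613). Grm2, a receptor of dentate granule cells and their terminals, had −0.19 (SE 0.0974, adjusted p = 0.344), Grm8 −0.12 (SE 0.123, adjusted p = 0.657) and Grm7 0.018 (SE 0.0478, adjusted p = 0.878).

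**Figure D3:**
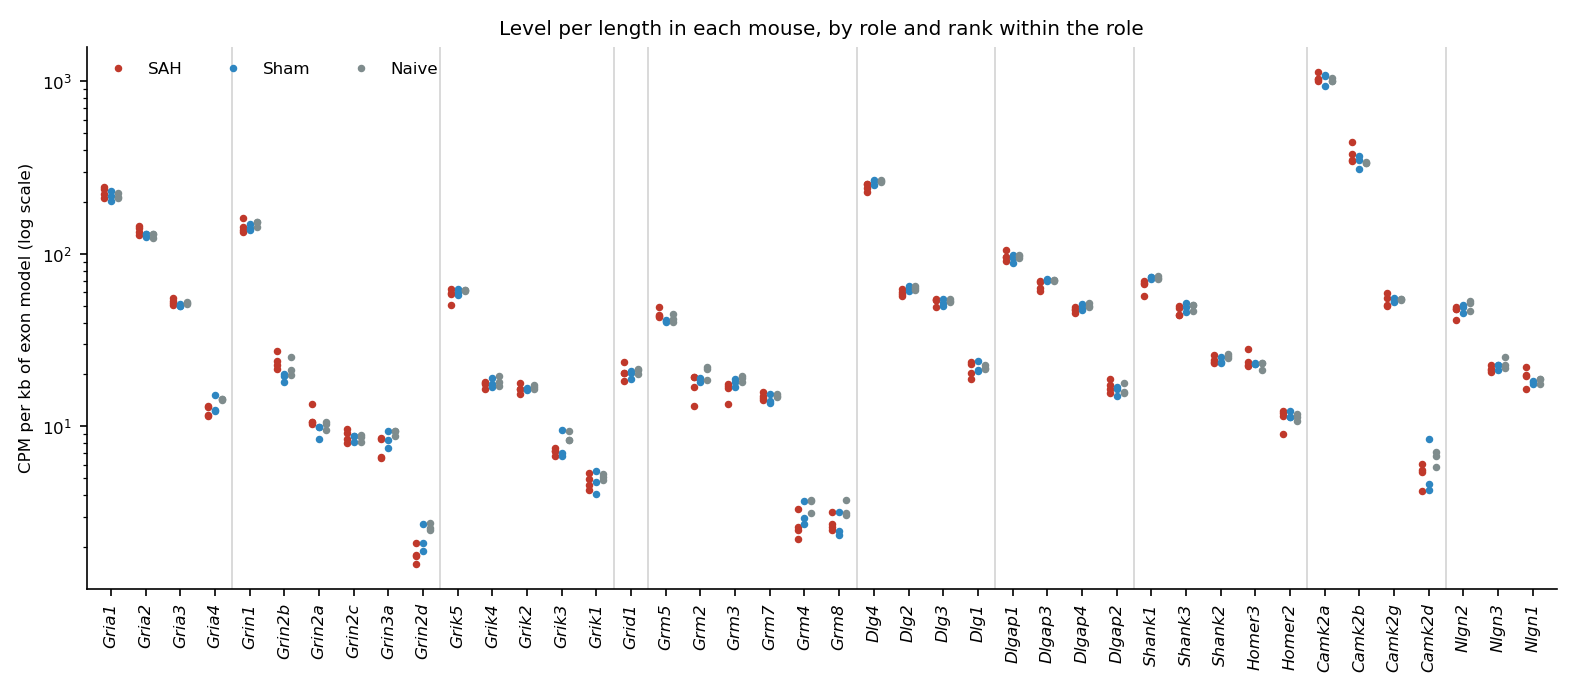
CPM per kilobase of exon model on a log axis, 1 point a mouse, for the 42 genes in the order of their roles (vertical lines) and of their level within the role, with SAH in red, Sham in blue and Naive in grey. Camk2a is the highest, at a mean of 1036 CPM per kilobase, and Grin2d the lowest, at 2.19, and the 3 groups overlap for most genes.

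No scaffold gene was called in SAH against control. Dlg4 encodes PSD-95, the main MAGUK scaffold of the postsynaptic density, and at 255 CPM per kilobase it exceeded Dlg2 (61.9), Dlg3 (52.8) and Dlg1 (21.8) in every mouse. Dlg4 (mm9 chr11:69832107-69859033) was counted at 842, 839.7, 796 and 761 CPM in the SAH mice, at 832, 892 and 883 CPM in the Sham mice and at 876, 890.4 and 869 CPM in the Naive mice. SAH mice 3 and 4 lay below all control mice, and SAH mice 1 and 2 above Sham mouse 5 only. Its log2 fold change was −0.11 (SE 0.0362, adjusted p = 0.138), and it passed the threshold with DESeq2 (adjusted p = 0.0901) and, in edgeR, without SAH mouse 1 (0.0988) or SAH mouse 2 (0.0992). Dlg2, which encodes PSD-93, had −0.087 (SE 0.0366, adjusted p = 0.245), Dlg1 had −0.041 (SE 0.0609, adjusted p = 0.764) and Dlg3 had 0.0036 (SE 0.0406, adjusted p = 0.976).

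SAPAP proteins, from Dlgap1 to Dlgap4, bridge PSD-95 and Shank, and 0 of their 4 genes were called. Dlgap1, the most abundant at 96.0 CPM per kilobase, was counted at 765, 763, 842 and 728 CPM in the SAH mice, at 710.2, 790.0 and 757 CPM in the Sham mice and at 752, 783 and 773 CPM in the Naive mice. The groups overlapped, and the Dlgap1 difference was 0.025 (SE 0.0430, adjusted p = 0.797). Dlgap3 was counted at 303, 301, 267 and 276 CPM in the SAH mice, at 304, 314 and 309 CPM in the Sham mice and at 306, 309 and 309 CPM in the Naive mice. All 4 SAH mice lay below all 6 control mice, which spanned only 304 to 314 CPM, and SAH mice 1 and 2 lay just under them. The log2 fold change of Dlgap3 was −0.11 (SE 0.0401, adjusted p = 0.192). Dlgap4 had −0.072 (SE 0.0382, adjusted p = 0.366) and Dlgap2 0.068 (SE 0.0593, adjusted p = 0.590).

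Shank proteins lie under the SAPAP layer and join it to Homer and to actin. Shank1 (mm9 chr7:51565634-51613723), the most abundant of them at 70.0 CPM per kilobase, was counted at 531, 510.4, 434 and 514 CPM in the SAH mice, at 546, 560.3 and 555 CPM in the Sham mice and at 567, 552 and 546 CPM in the Naive mice. All 4 SAH mice lay below all 6 control mice, with SAH mouse 3 the lowest by a wide margin. For Shank1 the log2 fold change was −0.16 (SE 0.0483, adjusted p = 0.113), with an interval of −0.26 to −0.053, which missed the threshold. It passed with DESeq2 (adjusted p = 0.0597) and, in edgeR, without SAH mouse 1 (adjusted p = 0.0629), and without SAH mouse 3 it was −0.095 (adjusted p = 0.174). Shank2 had −0.035 (SE 0.0437, adjusted p = 0.714) and Shank3, the family member tied to Phelan-McDermid syndrome, −0.071 (SE 0.0476, adjusted p = 0.476). Homer2 and Homer3, which link metabotropic receptors to calcium stores, had −0.04 (SE 0.0711, adjusted p = 0.805) and 0.084 (SE 0.0608, adjusted p = 0.507).

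CaMKII is a holoenzyme of many subunits in which the alpha and beta forms, from Camk2a and Camk2b, dominate in forebrain neurons. Camk2a had the highest level per kilobase of the 42 genes at 1036 CPM, with Camk2b at 356 CPM, Camk2g at 54.0 CPM and Camk2d at 5.84 CPM. Camk2a was counted at 5553, 5360.3, 6095 and 5519 CPM in the SAH mice, at 5002, 5857 and 5733 CPM in the Sham mice and at 5407, 5393 and 5597 CPM in the Naive mice. Its log2 fold change was 0.035 (SE 0.0447, adjusted p = 0.723). Camk2b (mm9 chr11:5869669-5965751), whose beta subunit also bundles actin in spines, was counted at 1448, 1439, 1851 and 1576 CPM in the SAH mice, at 1297, 1539 and 1459.8 CPM in the Sham mice and at 1421, 1404 and 1401 CPM in the Naive mice. SAH mouse 3 lay far above the other mice, and for Camk2b the difference was 0.15 (SE 0.0652, adjusted p = 0.251). Camk2d had −0.21 (SE 0.166, adjusted p = 0.545) with an interval of −0.57 to 0.14, the widest of the 42, and Camk2g −0.015 (SE 0.0464, adjusted p = 0.894).

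A ratio of the counts of 2 genes in the same library does not depend on how the library is scaled, and 3 such ratios were compared. The log2 ratio of Camk2a to Camk2b was 1.94, 1.90, 1.72 and 1.81 in the SAH mice, 1.95, 1.93 and 1.97 in the Sham mice and 1.93, 1.94 and 2.00 in the Naive mice. SAH mice 2, 3 and 4 lay below every control mouse and SAH mouse 1 inside their range. The SAH mice averaged 1.84 ± 0.098 (SD, n = 4) and the control mice 1.95 ± 0.028 (SD, n = 6), a difference of −0.11 (2-sided exact permutation test over 210 splits, p = 0.0286, adjusted over the 3 ratios 0.0858). This p doubles the smaller tail. Counting instead the splits with at least as large an absolute difference gave an exact p of 0.0143 (adjusted 0.0429), and the more cautious definition was chosen after that value had been seen. The difference missed the threshold without SAH mouse 2, 3 or 4, Sham mouse 5 or 7, or Naive mouse 9 or 10 (adjusted exact p of 0.143 to 0.214), and it was −0.071 without SAH mouse 3. Against Sham mice alone or Naive mice alone it was −0.11 in both cases, where 35 splits cannot give a p under 0.0571.

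Neither of the other ratios passed the threshold. The log2 ratio of Gria1 to Gria2, a rough measure of GluA1 against GluA2 messages, averaged 0.35 ± 0.042 (SD, n = 4) in the SAH mice, while the control mice had 0.38 ± 0.053 (SD, n = 6) (difference −0.024, exact permutation p = 0.476, adjusted 0.714). The log2 ratio of Grin2a to Grin2b, the GluN2A to GluN2B balance that increases during development, averaged −1.82 ± 0.077 (SD, n = 4) in the SAH mice, while the control mice had −1.81 ± 0.090 (SD, n = 6) (difference −0.0050, exact permutation p = 0.924, adjusted 0.924).

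**Figure D4:**
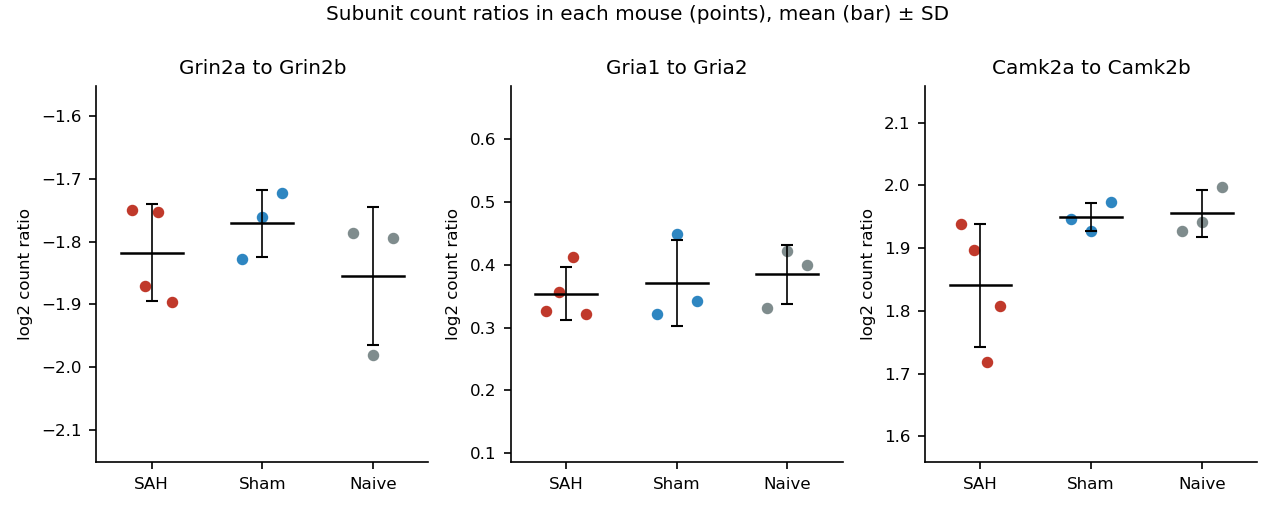
Log2 ratio of counts within each library for 3 pairs of subunit genes, with points for mice, bars for group means and error bars for the SD, on axes of equal span. For Camk2a to Camk2b, SAH mice 2, 3 and 4 lie between 1.72 and 1.90, below the control mice at 1.93 to 2.00.

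Neuroligins are the postsynaptic partners of neurexins, with Nlgn1 placed at excitatory, Nlgn2 at inhibitory and Nlgn3 at both kinds of synapse. None of the 3 was called. Nlgn2, the most abundant at 48.3 CPM per kilobase, was counted at 239, 248, 240.0 and 206 CPM in the SAH mice, at 247, 252 and 227 CPM in the Sham mice and at 259, 266 and 233 CPM in the Naive mice. SAH mouse 4 was the lowest of the 10, the groups overlapped, and the Nlgn2 difference was −0.085 (SE 0.0572, adjusted p = 0.477). Nlgn1 had 0.093 (SE 0.0637, adjusted p = 0.485) and Nlgn3 −0.077 (SE 0.0501, adjusted p = 0.460).

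The 42 genes were also compared with each control group alone, and these comparisons share the SAH mice and are not independent of each other. In SAH against Sham, 0 of the 42 genes were called (0.72% of 15134 genes tested) and 7 had an unadjusted p under 0.05 (9.69% of all genes). Log2 fold changes were above 0 for 20 genes and below 0 for 22. Grin2d was not called against Sham mice, whose range overlapped that of the SAH mice, with a log2 fold change of −0.31 (SE 0.131, adjusted p = 0.471). Grin2b had the smallest p, with a log2 fold change of 0.31 (SE 0.0897, adjusted p = 0.223), followed by Grin2a with 0.26 (SE 0.0943, adjusted p = 0.372). Grin2b, Grin2a and Grm5 were higher in all 4 SAH than in all 3 Sham mice, and Shank1 and Dlgap3 lower, where 5.03% and 4.45% of all genes showed such a separation. In SAH against Naive, 1 of the 42 was called (2.99% of all genes, 0.965% as lower), which was again Grin2d, lower at −0.52 (SE 0.130, adjusted p = 0.0725), and 10 had an unadjusted p under 0.05 (14.8% of all genes). There Camk2b was higher in all 4 SAH than in all 3 Naive mice (7.04% of all genes), and 8 genes were lower (6.75% of all genes): Grin2d, Gria4, Grm3, Grin3a, Grik3, Shank1, Dlg4 and Dlgap3. Grik3 had −0.28 (SE 0.102, adjusted p = 0.222) and Grin3a −0.28 (SE 0.104, adjusted p = 0.221) in this comparison. The Grin2d call against Naive mice was lost without SAH mouse 4, without any 1 of the Naive mice and with libraries scaled to the pan-neuron markers, and a fit of the SAH and Naive mice alone called Grik3 as well. In Sham against Naive, 0 of the 42 were called (0.00661% of all genes) and 1, Grm8, had an unadjusted p under 0.05, with a log2 fold change of −0.31 (SE 0.134, adjusted p = 0.9998), against 2.02% of all genes. Log2 fold changes there were above 0 for 8 genes and below 0 for 34, with a median of −0.036, against −0.0017 over all genes. They included −0.21 for Grin2d (SE 0.137) and −0.20 for Grin2b (SE 0.0955). In SAH against Naive, 13 were above 0 and 29 below, with a median of −0.063. The median in SAH against Sham was −0.0071.

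Variation between mice is given beside that of all genes tested. The 42 genes were counted at higher levels, with a median of 125 CPM in control mice against 23.0 CPM over all genes. The values therefore do not compare how variable the genes are at equal level. The coefficient of variation had a median of 4.79% over the 42 genes among the control mice, against 6.65% over all genes tested, and of 8.02% among the SAH mice, against 9.57%. SAH mouse 3 was the highest of the 10 mice for 16 of the 42 genes and the lowest for 12, or 66.7% in all, against 51.0% over all genes tested. Sham mouse 5 was at an end for 14 genes, or 33.3% against 17.8% of all genes, and SAH mouse 4 for 12, or 28.6% against 27.7%. SAH mouse 3 was also the mouse with the highest choroid plexus marker sum and the highest dentate granule cell marker sum, 458 CPM, against 270.5 to 367 CPM in control mice, whose part in these values was not tested.

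Beyond the 42 genes, 73 other genes of the excitatory postsynapse were examined in 5 lists, and 71 passed the filter. Of these 1 was called higher and 0 lower, against 3.13% and 1.54% of all genes tested, and 16 had an unadjusted p under 0.05, or 22.5% against 17%. Of the 16, 5 had a higher mean in SAH (7.04%, against 9.13% of all genes) and 11 a lower mean (15.5%, against 7.87%). The 71 genes were also measured more precisely, with a median of 133 CPM in control mice and a median standard error of 0.0538. Over all genes these were 23.0 CPM and 0.0758, so the shares do not compare how often genes differed. The called gene was Frrs1l, whose product accompanies AMPA receptors through their assembly in the endoplasmic reticulum. It was counted at 296, 299, 333 and 332 CPM in the SAH mice, at 256, 277 and 274 CPM in the Sham mice and at 282, 291 and 266 CPM in the Naive mice. All 4 SAH mice lay above all 6 control mice, and Frrs1l had a log2 fold change of 0.20 (SE 0.0473, adjusted p = 0.0430). With mice left out in turn the log2 fold change of Frrs1l lay between 0.17 and 0.23, and its call was lost without SAH mouse 4 (edgeR adjusted p = 0.141) or Naive mouse 10 (edgeR adjusted p = 0.102). Of the other AMPA and kainate receptor auxiliary genes, 14 were tested and 0 were called, and the 15 genes of this list had a median log2 fold change of 0.0015. The 3 tested of the 5 other glutamate receptor and Homer genes, the 15 other postsynaptic density and trafficking genes, the 16 other adhesion genes and the 22 spine calcium genes had medians of −0.051, −0.016, −0.11 and 0.029, with 0 called in each. Among the adhesion genes 12 of 16 had log2 fold changes below 0 and 4 above 0, from −0.32 for Nptxr to 0.45 for Il1rapl1. Lrrtm2, a neurexin-binding organiser of excitatory synapses, had −0.22 (SE 0.0814, adjusted p = 0.187).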

How the data were processed

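Hippocampal total RNA of 10 mice was depleted of ribosomal RNA and sequenced as stranded read pairs. The authors aligned the reads to mm9 with STAR and counted them with featureCounts 1.6.2 on the union of the exons of each gene name, discarding reads that fell on more than 1 gene. The deposited values are raw counts per gene name, used as deposited. No exon of the 42 genes overlapped another gene name on its strand. Reads were not analysed here.

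Counts were compared with edgeR 4.0.16 in R 4.3.3 (TMM, filterByExpr with a minimum count of 10, quasi-likelihood test, Benjamini-Hochberg over all genes tested, threshold 0.10). SAH against Sham, SAH against Naive and Sham against Naive came from 1 fit of 3 groups. The scripts were tested on simulated data. Each mouse is 1 library, and no sequencing batch is given in the labels. The precision per mouse follows from 19743388 to 27254655 counts, where a count of 0 allows up to 3 counts (0.110 to 0.154 CPM, counting error only). The 42 genes and all lists were chosen with earlier results of these data known. Values in every mouse are given for genes past the threshold in any comparison, for the 10 smallest p in SAH against control, and for the gene with the highest level per length in each role. Camk2b, a gene of 1 of the 3 ratios, and Frrs1l are outside this rule and were given in every mouse after their values were seen. Of the other postsynapse lists, called genes are named. Called markers of other cells are mostly given as counts, and Lrrtm2 and the markers named were chosen after their values were seen. Alternatives were DESeq2 1.42.0, other scalings and filters, a robust fit, a threshold of 0.05, other fits of the groups, and each mouse left out. Promoter windows came from a RefSeq table for GRCm38.p6.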

Additional observations from a re-analysis of the deposited data

Results flagged for a closer look

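Among 90 sets of values (each of the 42 genes and 3 ratios in the SAH and in the control mice), 4 had a mouse whose gap to the next was large for the range of the set, where chance gives about 1 in 20. In 3 of the 4 the mouse was SAH mouse 3. Its Grin2a level was 61.0 CPM, above 46.9 to 48.1 CPM in the other SAH mice. Its Grm5 level was 418.6 CPM, above 367 to 375 CPM. Its Dlg3 level, the gene of the scaffold SAP102, was 276 CPM, below 304 to 307 CPM. Among the control mice, Homer3 was lowest in Naive mouse 9, at 51.9 CPM against 56.1 to 56.9 CPM in the other 5.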

How the results depend on the processing

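For 29 results, 494 alternative values were computed, and 434 kept the direction and the side of the threshold or, for counts and values without a test, stayed close. This total includes genes that were not called and stayed so. The Grin2d call in SAH against control was kept in 10 of 18 alternatives, and the Camk2a to Camk2b result in 5 of 14. The number of the 42 genes called in SAH against control stayed close in 10 of 19, where the gene called could differ. With mice left out in turn, the number of the 42 genes called ran from 0 to 4 in SAH against control and from 0 to 1 in SAH against Naive, and stayed at 0 in the other comparisons. It was 4 without SAH mouse 1 (Dlg4, Gria2, Grm4 and Shank1, without Grin2d), 2 without SAH mouse 2, 1 without Naive mouse 9 (Grin2b in place of Grin2d) and 0 without SAH mouse 3 or 4, Sham mouse 6 or Naive mouse 8 or 10. At an adjusted p under 0.05, 0 were called in both comparisons in which Grin2d is otherwise called. DESeq2 called 3 in SAH against control (Dlg4, Grin2d and Shank1, all lower) and 1 in SAH against Sham (Grin2b, higher). A fit of the SAH and Naive mice alone called 2 (Grik3 and Grin2d). Scaling to the pan-neuron markers left 0 called in SAH against Naive and moved the median of all genes to 0.054, 0.048 and 0.064 in SAH against control, Sham and Naive, and the median of the 42 genes to 0.016, 0.046 and 0.0035. The cause of these differences was not tested. Under that scaling the sign of Grin1 turned (0.034). With mice left out, log2 fold changes crossed 0 for Grin1 (−0.081 to 0.0086, turned without SAH mouse 1), Grid1 (−0.052 to 0.070, turned without SAH mouse 3 or Sham mouse 7), Dlgap1 (−0.015 to 0.053) and Camk2a (−0.0034 to 0.057), the last pair without SAH mouse 3. The Grin2a to Grin2b ratio difference was 0.037 against Naive mice alone and ran from −0.039 to 0.021 with mice left out. The Camk2a to Camk2b difference was −0.11 against Sham or Naive mice alone and ran from −0.14 to −0.071. The alternatives for Frrs1l were added after seeing the data, and 16 of 18 kept its call. No paired analysis was possible because the mice of different groups share no replicate number. Depth limits genes at low levels, and Grin2d, Grm8 and Grm4 had the lowest control means of the 42 (10.7, 11.0 and 14.6 CPM). The largest standard error in SAH against control was that of Camk2d, 0.166, at a control mean of 53.1 CPM.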
